A study of Mus musculus with 10 samples.

Results

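Serpins are protease inhibitors that share 1 fold, and the serpin genes of the mouse liver were followed here across 10 livers. A gene was taken as a serpin when its symbol in the deposited table had the form Serpin, a clade letter, a number and at most 1 further letter, and 49 such genes of the 17274 listed are described. RNA was sequenced from whole livers of wild-type mice in which a diet had induced nonalcoholic steatohepatitis. The diet, abbreviated CDAHFD, was rich in fat, lacked choline and supplied defined amino acids. In 5 livers an intravenous adeno-associated virus (AAV) encoded miR-181d-5p, which belongs to the miR-181 family of microRNAs, and in the other 5 livers the intravenous virus was a control AAV. All 10 livers therefore shared the diet, the genotype and an AAV injection. The promoter of the vector, its dose, the age and sex of the mice and the time of harvest are not stated in the labels. The labels do not tie each sample to its own animal, and p-values thus reflect only how far these samples vary. The level of miR-181d-5p itself was not analysed here, so the group labels were not checked against it.

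A serpin offers an exposed reactive centre loop to its target protease. Cleavage of the loop lets it insert into the body of the inhibitor, which traps the protease in a covalent complex, and members that no longer inhibit use the same fold to carry hormones or to assist collagen. Hepatocytes release into plasma many serpins of clades A, C, D and F, among them antitrypsin, antithrombin and antiplasmin, but not every member of these clades. Serpine2 of clade E acts around cells, Serpinh1 of clade H stays in the endoplasmic reticulum, and the serpins of clade B mostly stay in the cytosol. The 49 genes fell into 26 of clades A, C, D and F, 3 of clades E and H, 18 of clade B, and Serping1 and Serpini1, which belong to neither class. Of these, 29 had a mean of at least 0.5 FPKM (a fragment count divided by gene length and library size) over the 10 livers and were tested, namely 20, 2 and 6 of the 3 classes and Serping1. Whole-liver RNA does not separate fewer cells of a type from less RNA per cell, and the class names say nothing on which cells made a transcript here.

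The microRNA carried by the vector and its family are shown for their shared seed, bases 2 to 8, in capitals, since these letters decide which serpin transcripts hold a match. The mature sequences are from RefSeq on GRCm38.p6, and that of miR-181d-5p lies at chr8:84178759-84178781 on the minus strand.
mmu-miR-181d-5p: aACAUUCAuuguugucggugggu
mmu-miR-181a-5p: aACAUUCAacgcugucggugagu
mmu-miR-181b-5p: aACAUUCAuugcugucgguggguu
mmu-miR-181c-5p: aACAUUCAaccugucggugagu
All 4 carried the seed ACAUUCA. A match to it was sought in the longest annotated 3' UTR of each tested gene (GENCODE vM21, GRCm38), as TGAATGT, as TGAATGTA (an 8mer) or as GAATGTA, on the transcribed strand. Such a match stood in 4 of 29 tested serpins (13.8%), against 2821 (24%) of the 11771 genes with an annotated 3' UTR among those tested. Serpin 3' UTRs had a median length of 723 bases, against 1287 bases over all tested genes, so they offered less sequence to search. None of the 4 was an 8mer. The 7-base matches of Serpina10, Serpina3k and Serpinb8 are shown, the match in capitals.
Serpina10: tttaatgtataTGAATGTtttgtttgcat
Serpina3k: acctgttgctcTGAATGTcattccagcat
Serpinb8: gtcaagaaaggTGAATGTgattgatttat
Serpina3i held the other match. Of these 4 genes, the log2 change of FPKM + 1 (miR-181d-5p minus control) was -0.23 for Serpina3k, -0.11 for Serpinb8, -0.03 for Serpina3i and 0.08 for Serpina10. None of the 4 passed the adjusted test described next. A match is a description of letters and not evidence of binding.

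The share of liver RNA taken by serpin transcripts differed between the groups by less than the spread between livers. Summed over all members, serpin FPKM averaged 6422 ± 126 in miR-181d-5p livers and 6264 ± 434 in control livers (SD, n = 5 each, two-sided exact permutation p = 0.436), which was 1.35% ± 0.0334 of all FPKM in miR-181d-5p livers and 1.34% ± 0.0752 in control livers (exact permutation p = 0.818). Levels differed widely between genes. Serpina1b, an alpha-1 antitrypsin gene, was the most abundant at 1703 ± 83.3 FPKM in miR-181d-5p livers and 1620 ± 117 FPKM in control livers. Over all 10 livers Serpina3k, the antithrombin gene Serpinc1 and Serpina1a came next, with Serpinc1 above Serpina3k in the miR-181d-5p mean. Among the lower levels, clade B genes other than Serpinb6a and Serpinb6b had group means of 6.87 FPKM or less.

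**Figure D1:**
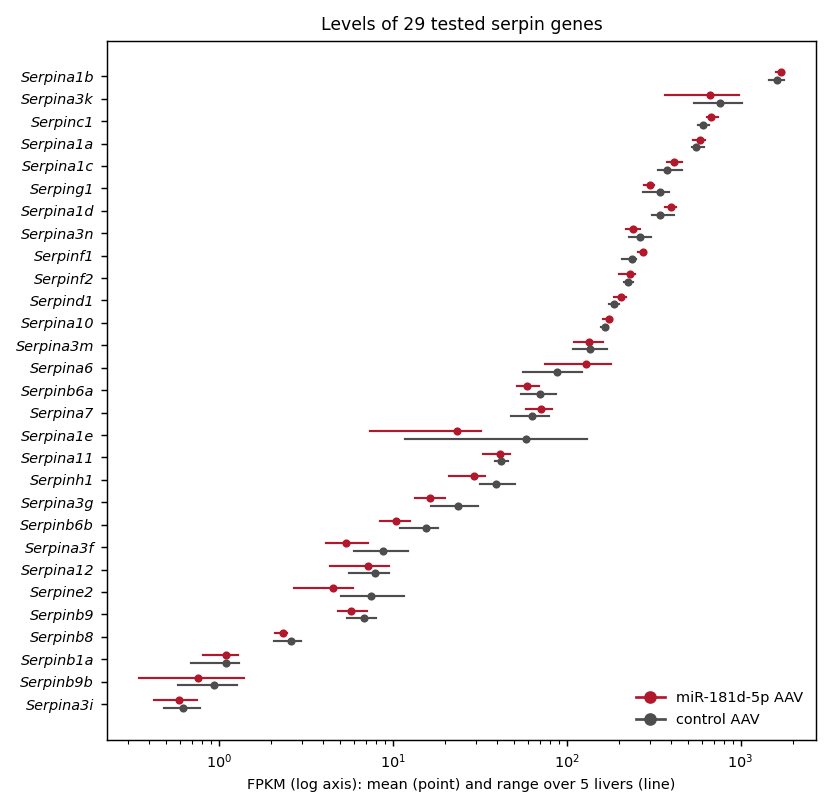
FPKM (log axis) of 29 tested serpin genes, ordered by mean, with the mean as a point and the range over 5 livers as a line, for miR-181d-5p livers (red, upper) and control livers (grey, lower). The ranges of the groups overlap in every gene except Serpinf1, and the widest ranges on this axis belong to Serpina1e and Serpinb9b.

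No serpin passed the test across all genes (limma, adjusted p), and the differences between the classes were not tested. With limma on log2(FPKM + 1) and Benjamini-Hochberg adjustment over 12053 genes, 0 of 29 tested serpins and 0 of all genes (0%) had an adjusted p under 0.05. At an unadjusted p under 0.05, limma gave 4 serpins that were higher in miR-181d-5p livers (13.8%, against 5.04% of all genes) and 5 that were lower (17.2%, against 9.63% of all genes). Limma voom on recovered reads gave 9 of 29 serpins in both directions together, against 14.5% of all genes, and 0 serpins after adjustment (0% of all genes). The higher ones were Serpina1d, Serpina6, Serpinc1 and Serpinf1, all of clades A, C and F. The lower ones were Serpina3f, Serpina3g, Serpinb6b, Serpine2 and Serpinh1. Groups did not overlap in 1 serpin, Serpinf1, which was higher (3.45%, against 1.02% of all genes), and in 0 that were lower (against 1.45% of all genes). The median log2 change was 0.06 over the 20 genes of clades A, C, D and F, of which 11 were higher and 9 lower, and it was 0.03 at a common FPKM sum and 0.02 with quantile normalization. It was -0.50 over Serpine2 and Serpinh1 of clades E and H, both lower, and -0.19 over clade B, with 5 of 6 lower, beside -0.02 over all genes tested. With low genes kept in, the median was 0.0012 over clades A, C, D and F and -0.0095 over clade B. Under other scalings or weights, Serpina11 turned to 0.0028 with array weights, Serpinb1a to -0.01 at a common FPKM sum and -0.04 with array weights, and 2 Serpina3 genes changed sign as given with them, while Serpine2 and each gene of clades C, D, F and H kept its sign in all 20 alternatives. These counts describe the livers and rest on members chosen with earlier results known.

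**Figure D2:**
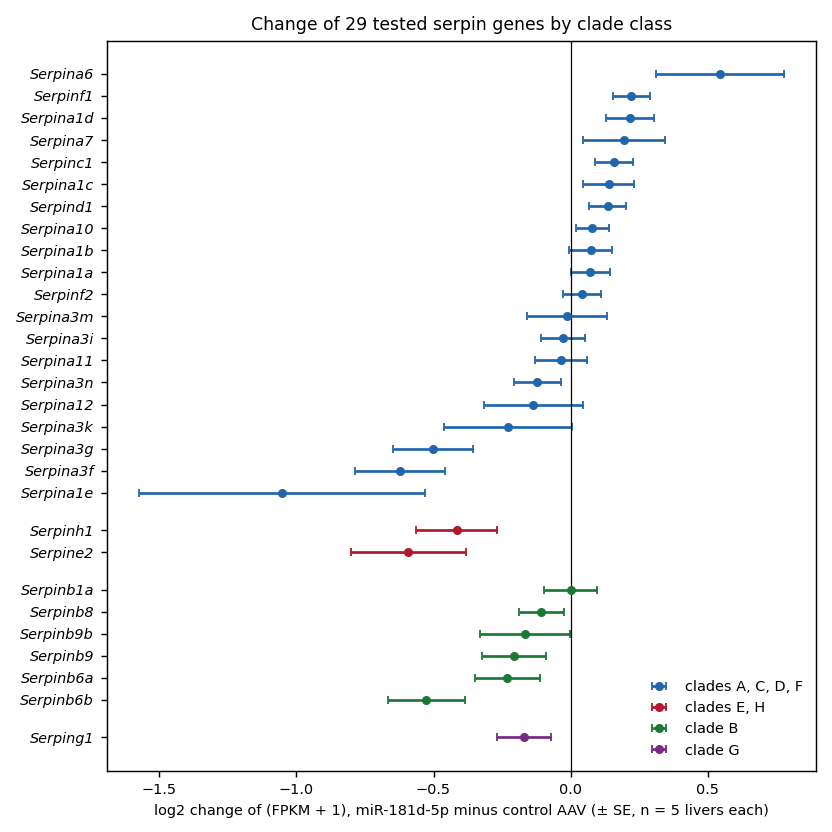
Change of 29 tested serpins on the log2(FPKM + 1) scale, miR-181d-5p minus control, as a point with its standard error (n = 5 livers each), grouped by clade class. Serpine2 and Serpinh1 lie at -0.59 and -0.41, while clades A, C, D and F run from -1.05 (Serpina1e) to 0.55 (Serpina6), and no point passed the adjusted test.

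Serpins that act around cells and in collagen assembly had lower means in miR-181d-5p livers. Serpine2, protease nexin 1, inhibits thrombin and urokinase at cell surfaces. It had 4.65, 5.25, 5.92, 2.71 and 4.18 FPKM in miR-181d-5p livers 1 to 5, against 5.06, 8.91, 5.15, 11.6 and 6.86 FPKM in control livers 1 to 5. Control livers 1 and 3 lay inside the miR-181d-5p range and the other 3 lay above it. Means were 4.54 ± 1.21 FPKM in miR-181d-5p livers and 7.51 ± 2.76 FPKM in control livers (SD, n = 5 each, exact permutation p = 0.0556). That equals a log2 change of -0.59 ± 0.21 (SE, limma adjusted p = 0.26). Serpinh1, also called Hsp47, inhibits no protease and instead binds folding procollagen in the endoplasmic reticulum. Its values were 32.7, 29.8, 33.8, 21.2 and 28.4 FPKM in miR-181d-5p livers 1 to 5, against 33.5, 35.1, 31.7, 50.6 and 46.3 FPKM in control livers 1 to 5. Control livers 4 and 5 were highest, miR-181d-5p liver 4 was lowest, and the groups overlapped at 31.7 to 33.8 FPKM. The group means were 29.2 ± 4.99 FPKM in miR-181d-5p livers and 39.4 ± 8.47 FPKM in control livers (SD, n = 5 each, exact permutation p = 0.0397). The log2 change stood at -0.41 ± 0.15 (SE, limma adjusted p = 0.262). That exact p was 0.0794 without any 1 of 6 of the livers (miR-181d-5p livers 2, 4 and 5, control livers 2, 4 and 5).

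Listed markers of stellate cells and fibroblasts had lower means in 14 of 14 genes in miR-181d-5p livers (median log2 change -0.35). Of these, 11 were lower at an unadjusted p under 0.05, against 9.63% of all genes, and 0 passed after adjustment. None of the 14 was at 0 in all livers. Their summed level was 421 to 575 FPKM in miR-181d-5p livers, against 585 to 784 FPKM in control livers. Cholangiocyte markers were lower in 7 of 7 tested genes, with sums of 116 to 373 FPKM in miR-181d-5p livers and 273 to 510 FPKM in control livers. Endothelial markers were lower in 7 of 10 genes, with sums of 138 to 148 FPKM in miR-181d-5p livers and 141 to 161 FPKM in control livers. Of all 12053 genes tested, 6574 were lower and 5479 higher. The part of these cell types in the serpin values was not tested.

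**Figure D3:**
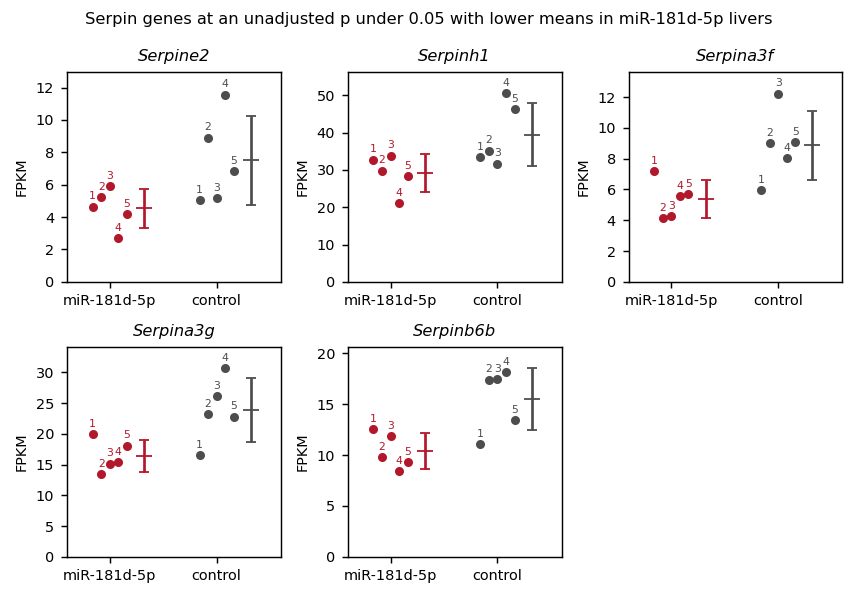
FPKM per liver of Serpine2, Serpinh1 and Serpina3f (upper row) and Serpina3g and Serpinb6b (lower row), with liver numbers above the points and the mean ± SD beside them (n = 5 each), miR-181d-5p livers in red and control livers in grey. In each of these 5 genes the groups overlap, with the miR-181d-5p mean below the control mean.

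The partners of Serpine2 and Serpinh1 gave further context. Among 13 genes listed as partners in plasminogen activation, 8 were lower and 5 higher in miR-181d-5p livers (median log2 change -0.11). At an unadjusted p under 0.05, 2 were lower and 2 higher (against 9.63% and 5.04% of all genes), with 0 after adjustment. The list was broad and also held the thrombin receptor Thbd and the liver protease Tmprss6. Thrombomodulin (Thbd), the endothelial thrombin receptor, had means of 5.85 ± 0.817 FPKM in miR-181d-5p livers and 10.3 ± 2.65 FPKM in control livers with no overlap (limma adjusted p = 0.221). Tissue plasminogen activator (Plat) had 5.29 ± 1.15 FPKM in miR-181d-5p livers and 7.71 ± 1.46 FPKM in control livers (adjusted p = 0.24). Urokinase (Plau) averaged 11.4 ± 3.62 FPKM in miR-181d-5p livers and 13.0 ± 2.56 FPKM in control livers (limma adjusted p = 0.607). Plasminogen (Plg) averaged 505 ± 14.7 FPKM in miR-181d-5p livers and 476 ± 26.1 FPKM in control livers (limma adjusted p = 0.53). Tmprss6, the liver protease matriptase-2, averaged 130.2 ± 5.59 FPKM in miR-181d-5p livers and 117 ± 4.43 FPKM in control livers with no overlap (limma adjusted p = 0.293). Of 18 genes for collagens and their folding, which Serpinh1 assists, 14 were lower and 4 higher (median log2 change -0.32). At an unadjusted p under 0.05 in limma 12 were lower and 1 higher (against 9.63% and 5.04% of all genes), with 0 after adjustment. The summed level of these genes overlapped between the groups, at 1371 to 1595 FPKM in miR-181d-5p livers and 1307 to 1591 FPKM in control livers. The type IV collagen gene Col4a1 averaged 36.5 ± 2.59 FPKM in miR-181d-5p livers and 50.3 ± 5.07 FPKM in control livers without overlap (limma adjusted p = 0.167). Col1a1 averaged 42.3 ± 9.19 FPKM in miR-181d-5p livers and 60.01 ± 11.1 FPKM in control livers (adjusted p = 0.25). All 13 genes of a list known to be induced by TGF-beta were lower (median log2 change -0.33). Of these, 7 were lower at an unadjusted p under 0.05, against 9.63% of all genes, and 0 passed after adjustment. Ccn2, connective tissue growth factor, averaged 21.3 ± 4.79 FPKM in miR-181d-5p livers and 48.8 ± 17.7 FPKM in control livers, again without overlap (limma adjusted p = 0.167). In that list the summed level of control liver 5 was 622 FPKM, against at most 505 FPKM in control livers 1 to 4. Circadian and immediate early genes summed to 919 FPKM in control liver 5, against at most 364 FPKM in control livers 1 to 4 and at most 322 FPKM in miR-181d-5p livers. Control liver 5, which also had the second highest Serpinh1 level, thus stood apart in those genes, and their part in its serpin levels was not tested.

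Plasma serpins of clades C, D and F, most of which restrain clotting or fibrinolysis, had slightly higher means in miR-181d-5p livers, and none passed the adjusted test. All 4 genes of clades C, D and F had positive log2 changes, with a median of 0.15. Serpinf1 encodes pigment epithelium-derived factor, an inhibitor of vessel growth that inhibits no protease. It stood at 278, 276, 283, 282 and 257 FPKM in miR-181d-5p livers 1 to 5, against 244, 208, 234, 246 and 250.3 FPKM in control livers 1 to 5. The lowest miR-181d-5p liver, liver 5, exceeded the highest control liver, also liver 5, so the groups did not overlap. Means were 275 ± 10.3 FPKM in miR-181d-5p livers and 236 ± 16.8 FPKM in control livers (SD, n = 5 each, exact permutation p = 0.00794, the smallest that 5 against 5 livers can give). On the log2 scale this was 0.22 ± 0.07 (SE, limma adjusted p = 0.24).

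Serpinc1 is antithrombin, which blocks thrombin and factor Xa. It had 666, 674, 641, 739.6 and 673 FPKM in miR-181d-5p livers 1 to 5, against 614, 568, 599, 597 and 658 FPKM in control livers 1 to 5. Only control liver 5 reached into the miR-181d-5p range, where it exceeded liver 3. The averages were 679 ± 36.6 FPKM in miR-181d-5p livers and 607 ± 33.0 FPKM in control livers (SD, n = 5 each, exact permutation p = 0.0159). That equals a log2 change of 0.16 ± 0.07 (SE, limma adjusted p = 0.321). Serpind1, heparin cofactor II, also blocks thrombin, and its values were 218, 201, 204, 218 and 187 FPKM in miR-181d-5p livers 1 to 5, against 199, 193, 174, 187 and 182 FPKM in control livers 1 to 5. MiR-181d-5p livers 1, 2, 3 and 4 exceeded every control liver and liver 5 lay among the controls. Means of 206 ± 13.0 FPKM in miR-181d-5p livers and 187 ± 9.85 FPKM in control livers (SD, n = 5 each) gave an exact permutation p of 0.0397 and a limma adjusted p of 0.365, and after scaling each liver to the same FPKM sum the exact permutation p was 0.222. Leaving out a single liver gave an exact permutation p of 0.0635 to 0.0794 for 7 of the 10 livers.

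Serpinf2, alpha-2 antiplasmin, holds plasmin in check. Its level was 237, 235, 242, 246 and 201 FPKM in miR-181d-5p livers 1 to 5, against 215, 239, 219.98, 219 and 233 FPKM in control livers 1 to 5. MiR-181d-5p livers 1 to 4 lay at 235 FPKM or more and liver 5 was the lowest of all 10, with means of 232 ± 18.0 FPKM in miR-181d-5p livers and 225 ± 10.2 FPKM in control livers (SD, n = 5 each, exact permutation p = 0.468, limma adjusted p = 0.801). Serpina10, the protein Z-dependent inhibitor of factor Xa, had 177, 180.4, 182, 173 and 161 FPKM in miR-181d-5p livers 1 to 5, against 172, 158, 159.6, 168 and 169.5 FPKM in control livers 1 to 5. MiR-181d-5p livers 1 to 4 exceeded all controls and liver 5 did not (means 175 ± 8.36 FPKM in miR-181d-5p livers and 165 ± 5.97 FPKM in control livers, SD, n = 5 each, exact permutation p = 0.0714, limma adjusted p = 0.541).

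The clotting and complement zymogens that these inhibitors oppose gave 12 higher and 6 lower of 18 tested genes in miR-181d-5p livers (median log2 change 0.06, 0 at an unadjusted p under 0.05 and 0 adjusted in limma). Prothrombin (F2) averaged 565 ± 13.4 FPKM in miR-181d-5p livers and 514 ± 28.7 FPKM in control livers (limma adjusted p = 0.342). Factor X (F10) averaged 117 ± 2.64 FPKM in miR-181d-5p livers and 108 ± 5.81 FPKM in control livers (adjusted p = 0.36). Masp1, a protease of the lectin pathway of complement, averaged 16.7 ± 0.591 FPKM in miR-181d-5p livers and 19.4 ± 3.09 FPKM in control livers (limma adjusted p = 0.362). Plasma protease inhibitors outside the serpins gave 12 higher and 7 lower of 19 tested (median log2 change 0.03). At an unadjusted p under 0.05, 0 were higher and 1 lower (against 5.04% and 9.63% of all genes). The lower one was Spint1, an inhibitor of serine proteases at cell surfaces, with 2.2 ± 0.635 FPKM in miR-181d-5p livers and 3.27 ± 1.13 FPKM in control livers (limma adjusted p = 0.334). Itih1, an inter-alpha-trypsin inhibitor heavy chain, averaged 145 ± 7.99 FPKM in miR-181d-5p livers and 130.3 ± 11.2 FPKM in control livers (adjusted p = 0.341). Hepatocyte markers were higher in 9 of 12 genes (median log2 change 0.07), with sums of 36049 to 40803 FPKM in miR-181d-5p livers and 34372 to 41223 FPKM in control livers, and their part in the plasma serpin values was not tested.

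**Figure D4:**
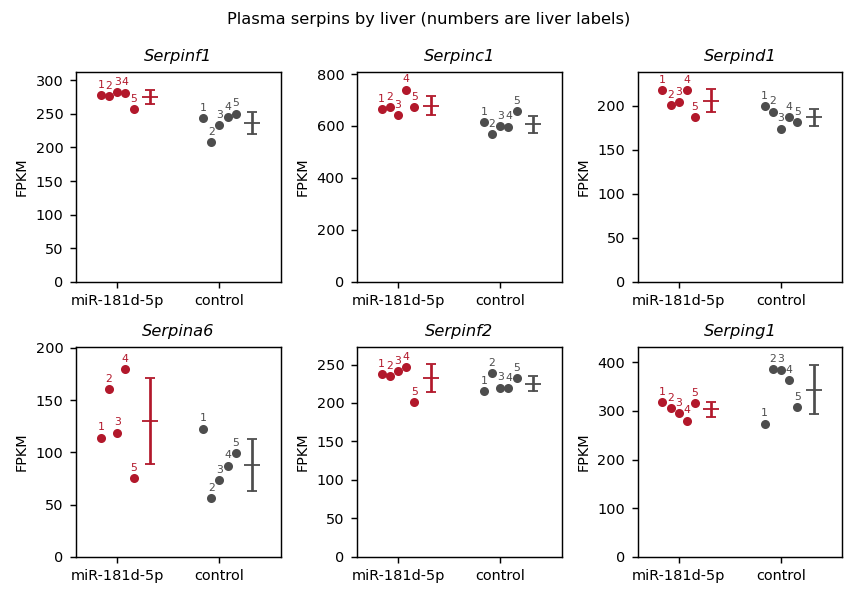
FPKM per liver of 6 serpins of plasma, with liver numbers above the points and the mean ± SD beside them (n = 5 each), miR-181d-5p livers in red on the left and control livers in grey on the right. Serpinf1 is the gene without overlap, with 257 FPKM as the lowest miR-181d-5p value and 250.3 FPKM as the highest control value. In Serpinf1, Serpinf2, Serpind1 and Serpina6 liver 5 lies below the other miR-181d-5p livers.

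Serpins that carry hormones had higher means in miR-181d-5p livers with wide overlap. Serpina6, the corticosteroid-binding globulin, had 114, 161, 119, 179.8 and 75.4 FPKM in miR-181d-5p livers 1 to 5, against 123, 56.4, 73.2, 87.2 and 99.1 FPKM in control livers 1 to 5. Livers 2 and 4 of the miR-181d-5p group were highest, while its liver 5 lay among the controls and control liver 1 lay among the miR-181d-5p livers. The means were 129.8 ± 41.1 FPKM in miR-181d-5p livers and 87.7 ± 25.2 FPKM in control livers (SD, n = 5 each, exact permutation p = 0.103), with the highest log2 change of any tested serpin at 0.55 ± 0.23 (SE, limma adjusted p = 0.317). Serpina7, the thyroxine-binding globulin on chromosome X, had 82.5, 58.1, 81.4, 63.5 and 71.2 FPKM in miR-181d-5p livers 1 to 5, against 76.0, 47.8, 62.1, 79.4 and 49.7 FPKM in control livers 1 to 5. The ranges overlapped over most of their width (means 71.3 ± 10.8 FPKM in miR-181d-5p livers and 63.0 ± 14.5 FPKM in control livers, SD, n = 5 each, exact permutation p = 0.325, limma adjusted p = 0.548). In a list of 12 tested hormone carriers and angiotensin genes 9 were higher (median log2 change 0.06). At an unadjusted p under 0.05, 1 was higher and 1 lower (against 5.04% and 9.63% of all genes), with 0 after adjustment. Transthyretin (Ttr), another thyroxine carrier, averaged 2225 ± 98.3 FPKM in miR-181d-5p livers and 1912 ± 219.98 FPKM in control livers (limma adjusted p = 0.311).

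The 5 alpha-1 antitrypsin genes, inhibitors of neutrophil elastase and related proteases, reached totals that overlapped between the groups. Their summed level was 2991, 3025, 3304, 3176 and 3119 FPKM in miR-181d-5p livers 1 to 5, against 2947, 2952, 2980, 2626 and 3274 FPKM in control livers 1 to 5. Control liver 4 was the lowest and control liver 5 exceeded all but 1 of the miR-181d-5p livers, so the groups overlapped. The sums averaged 3123 ± 125 FPKM in miR-181d-5p livers and 2956 ± 229.6 FPKM in control livers (SD, n = 5 each, exact permutation p = 0.198), which was 48.6% ± 2.02 of serpin FPKM in miR-181d-5p livers and 47.2% ± 1.74 in control livers (exact permutation p = 0.206). Without control liver 5, which had the highest control sum, the exact permutation p of the sum was 0.0159. No other alternative took that p under 0.05, and the log2 ratio of the means ran from 0.04 to 0.12 without 1 liver.

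Single alpha-1 antitrypsin genes did not move alike in their means. Serpina1a, Serpina1b, Serpina1c and Serpina1d had log2 changes of 0.07, 0.07, 0.14 and 0.22, and Serpina1d averaged 396 ± 24.4 FPKM in miR-181d-5p livers and 343 ± 42.9 FPKM in control livers (limma adjusted p = 0.307). Serpina1e went the other way and varied most. Its level was 22.3, 24.4, 32.2, 7.45 and 31.1 FPKM in miR-181d-5p livers 1 to 5, against 37.9, 130.7, 51.5, 11.7 and 58.4 FPKM in control livers 1 to 5. Liver 4 was lowest in each group, control liver 2 was highest, and the log2 change of -1.05 ± 0.52 (SE) had a limma adjusted p of 0.366.

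These genes stand side by side on chromosome 12 and share much of their sequence, so the split of reads between them is uncertain. Their coding sequences were 91.5% to 96.7% identical over 10 pairs (GENCODE vM21), and of all stretches of 100 coding bases 58% of Serpina1a, 27.9% of Serpina1b, 61.7% of Serpina1c, 29.8% of Serpina1d and 19.1% of Serpina1e were found exactly in another of the 5. The annotated span of Serpina1b (103728156 to 103830373) also contains that of Serpina1d (103763594 to 103773592). The 60 coding bases that start at the hinge of the reactive centre loop (bases 1150 to 1209 of the coding sequence of Serpina1a and 1081 to 1140 of the others) are shown to compare the bait region, with the 13 bases that vary among the 5 genes in capitals.
Serpina1a: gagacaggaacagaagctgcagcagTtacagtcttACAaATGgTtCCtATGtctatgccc
Serpina1b: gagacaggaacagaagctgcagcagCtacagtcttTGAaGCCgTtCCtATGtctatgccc
Serpina1c: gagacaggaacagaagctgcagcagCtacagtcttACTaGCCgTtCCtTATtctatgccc
Serpina1d: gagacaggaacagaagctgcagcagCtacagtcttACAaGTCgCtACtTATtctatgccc
Serpina1e: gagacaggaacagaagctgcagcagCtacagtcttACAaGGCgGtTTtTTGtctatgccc
The capitals lie together in the later part of each line, and the start of the loop is the same in all 5. The promoters of the 5 genes (RefSeq, GRCm38.p6, minus strand) are shown around the letters GTTAAT, the core of the site of HNF1, a hepatocyte transcription factor, at chr12:103863595-103863680, chr12:103738170-103738255, chr12:103904932-103905017, chr12:103773604-103773689 and chr12:103956930-103957015 for Serpina1a to Serpina1e in order.
Serpina1a: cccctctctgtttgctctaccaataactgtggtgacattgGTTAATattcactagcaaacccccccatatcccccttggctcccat
Serpina1b: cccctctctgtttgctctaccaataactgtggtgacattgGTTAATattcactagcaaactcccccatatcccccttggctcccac
Serpina1c: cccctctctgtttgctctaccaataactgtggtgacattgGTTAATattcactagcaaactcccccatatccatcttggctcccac
Serpina1d: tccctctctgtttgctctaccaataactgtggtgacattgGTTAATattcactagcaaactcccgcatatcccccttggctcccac
Serpina1e: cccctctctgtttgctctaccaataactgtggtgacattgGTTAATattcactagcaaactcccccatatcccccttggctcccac
GTTAAT on either strand stood in 6 of the 16 genes of clades A, C, D and F with a promoter sequence (Serpina1a to Serpina1e and Serpina7). It stood in 1 of 5 genes of clade B (Serpinb8) and in 0 of 2 of clades E and H, against 7.1% of 32851 promoters of the same length. Serpins were counted by gene, with the letters in any promoter of the gene, so the 2 shares are not in the same unit. The windows of the 5 antitrypsin genes are also near copies of each other. The AP-1 site TGACTCA stood in Serpina1a, Serpina1b, Serpina1c, Serpina1d and Serpinb8, against 5.2% of all promoters. Serpina1e lacked those AP-1 letters in its promoter window, which says nothing on whether the factor binds.

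**Figure D5:**
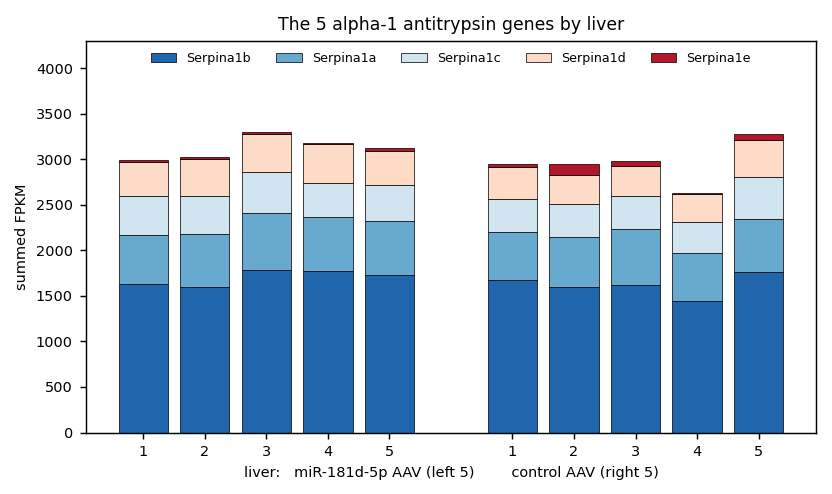
Summed FPKM of the 5 alpha-1 antitrypsin genes, stacked by gene, in each miR-181d-5p liver (left 5 bars) and each control liver (right 5 bars). The stacks run from 2991 to 3304 FPKM in miR-181d-5p livers and from 2626 to 3274 FPKM in control livers, Serpina1b is the largest layer in every liver, and the red layer of Serpina1e is thickest in control liver 2.

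The 6 tested Serpina3 genes, mouse relatives of the human acute phase protein alpha-1 antichymotrypsin, had lower means in miR-181d-5p livers. All 6 had a negative log2 change, with a median of -0.17, although Serpina3m turned to 0.08 with array weights and Serpina3i to 0.03 with quantile normalization, and both also changed sign when single livers were left out. Their summed level was 1154, 1096, 962, 757 and 1352 FPKM in miR-181d-5p livers 1 to 5, against 903, 1368, 1179, 1041 and 1489 FPKM in control livers 1 to 5. The 2 groups overlapped over most of this range, with liver 5 highest in each. Means were 1064 ± 222 FPKM in miR-181d-5p livers and 1196 ± 238 FPKM in control livers (SD, n = 5 each, exact permutation p = 0.389). Serpina3k was the most abundant of the 6 in group means, with 366 to 982 FPKM in miR-181d-5p livers and 539 to 1026 FPKM in control livers.

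The smallest limma p of clade A belonged to Serpina3f and Serpina3g, which are much less abundant. Serpina3g, also called Spi2A, is an interferon-inducible inhibitor of cathepsins that lacks a secretion signal, so its clade letter does not place it in plasma. Serpina3f had 7.2, 4.14, 4.26, 5.55 and 5.69 FPKM in miR-181d-5p livers 1 to 5, against 5.96, 9.02, 12.2, 8.01 and 9.09 FPKM in control livers 1 to 5. MiR-181d-5p liver 1 and control liver 1 overlapped and the other livers of the 2 groups were apart. The means were 5.37 ± 1.25 FPKM in miR-181d-5p livers and 8.86 ± 2.26 FPKM in control livers (SD, n = 5 each, exact permutation p = 0.0159). The log2 change stood at -0.62 ± 0.16 (SE, limma adjusted p = 0.221). Serpina3g had 19.97, 13.4, 15.2, 15.4 and 18.1 FPKM in miR-181d-5p livers 1 to 5, against 16.6, 23.2, 26.1, 30.8 and 22.8 FPKM in control livers 1 to 5. Control liver 1 again lay inside the miR-181d-5p range and the other 4 control livers lay above it. Averages were 16.4 ± 2.59 FPKM in miR-181d-5p livers and 23.9 ± 5.19 FPKM in control livers (SD, n = 5 each, exact permutation p = 0.0238). Its log2 change was -0.5 ± 0.14 (SE, limma adjusted p = 0.236). Without these 2 genes the median log2 change of clades A, C, D and F was 0.07, with 11 higher and 7 lower.

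Serpina3n, an acute phase inhibitor of cathepsin G and granzyme B, had 265, 263, 226, 220.2 and 235 FPKM in miR-181d-5p livers 1 to 5, against 228, 305, 262, 262 and 259.6 FPKM in control livers 1 to 5. Control liver 2 was highest and control liver 1 lay among the lowest, and the groups overlapped (means 242 ± 20.9 FPKM in miR-181d-5p livers and 263 ± 27.4 FPKM in control livers, SD, n = 5 each, exact permutation p = 0.254, limma adjusted p = 0.515). In a list of 22 other acute phase genes of the liver 14 were higher and 8 lower in miR-181d-5p livers (median log2 change 0.04). At an unadjusted p under 0.05, 0 were higher and 2 lower (against 5.04% and 9.63% of all genes). The interleukin 6 receptor gene Il6ra, 1 of these 2 lower genes, averaged 7.07 ± 0.995 FPKM in miR-181d-5p livers and 10.7 ± 3.18 FPKM in control livers (limma adjusted p = 0.248). The acute phase genes Saa1 and Hp had close group means. Saa1 averaged 182 ± 24.3 FPKM in miR-181d-5p livers and 182 ± 52.2 FPKM in control livers (limma adjusted p = 0.926). Hp averaged 4516 ± 392 FPKM in miR-181d-5p livers and 4460 ± 651 FPKM in control livers (limma adjusted p = 0.931).

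The bait regions of the Serpina3 genes are set out for the same reason as those of the antitrypsins, from the hinge of the loop on, with the 29 of 60 bases that vary among these 5 genes in capitals.
Serpina3f: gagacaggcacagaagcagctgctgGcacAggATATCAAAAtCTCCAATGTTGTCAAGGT
Serpina3i: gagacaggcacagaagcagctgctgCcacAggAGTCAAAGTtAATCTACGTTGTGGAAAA
Serpina3k: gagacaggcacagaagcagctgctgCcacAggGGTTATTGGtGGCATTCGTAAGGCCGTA
Serpina3m: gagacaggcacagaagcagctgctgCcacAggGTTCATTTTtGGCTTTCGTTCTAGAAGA
Serpina3n: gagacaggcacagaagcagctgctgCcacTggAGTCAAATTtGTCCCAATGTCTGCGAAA
Serpina3k and Serpina3m were the closest pair, with 90.8% identical coding bases, and 8.2% of the 100-base stretches of each were found exactly in another Serpina3 gene. The annotated span of Serpina3m also contains that of Serpina3k, since both start at chr12:104338486, so reads of these 2 genes may be shared or set aside by the counting. Serpina3f, Serpina3g and Serpina3i, and Serpina11 among the other genes of clades A, C, D and F, held the letters TTCNNNGAA of a STAT factor site in a promoter. These were 4 of 16 genes in all, and Serpinb6a among 5 genes of clade B held them too, against 8.3% of all promoters, which were counted singly. The windows of the Serpina3 genes lie on the plus strand at chr12:104214383-104214471, chr12:104236074-104236162 and chr12:104262980-104263068, with the match in capitals.
Serpina3f: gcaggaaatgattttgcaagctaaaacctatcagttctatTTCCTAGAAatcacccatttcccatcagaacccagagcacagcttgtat
Serpina3g: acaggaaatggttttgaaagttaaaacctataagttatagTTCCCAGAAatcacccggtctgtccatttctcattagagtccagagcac
Serpina3i: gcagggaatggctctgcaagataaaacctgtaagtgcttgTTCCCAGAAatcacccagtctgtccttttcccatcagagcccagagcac
Of these 3, Serpina3i had a mean close to the 0.5 FPKM needed for testing, at 0.594 ± 0.143 FPKM in miR-181d-5p livers and 0.622 ± 0.12 FPKM in control livers (limma adjusted p = 0.889). The Smad letters CAGACA stood in the promoters of Serpina11, Serpina12, Serpina1d, Serpina3f, Serpinf1 and Serpinh1, against 21% of all promoters. The C/EBP site TTGCGCAA (0.183% of all promoters) and the E-box CACGTG (7.15%) were found in 0 of the 16, 0 of the 2 and 0 of the 5 genes searched.

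Cytosolic serpins of clade B, which guard cells against their own or incoming proteases, mostly had lower means in miR-181d-5p livers. Other than Serpinb6a and Serpinb6b, they were at low levels, with group means of 6.87 FPKM or less. Serpinb6b, a relative of the cathepsin G inhibitor Serpinb6a, had 12.6, 9.81, 11.9, 8.43 and 9.27 FPKM in miR-181d-5p livers 1 to 5, against 11.1, 17.4, 17.4, 18.2 and 13.5 FPKM in control livers 1 to 5. Control liver 1 lay inside the miR-181d-5p range and the other 4 control livers above it. Its means were 10.4 ± 1.76 FPKM in miR-181d-5p livers and 15.5 ± 3.09 FPKM in control livers (SD, n = 5 each, exact permutation p = 0.0238). Its log2 change was -0.53 ± 0.14 (SE, limma adjusted p = 0.222). Serpinb6a, the most abundant gene of the clade, had 64.5, 54.9, 69.6, 52.0 and 56.2 FPKM in miR-181d-5p livers 1 to 5, against 54.7, 64.1, 69.1, 77.2 and 86.5 FPKM in control livers 1 to 5. Control livers 4 and 5 were above every other liver and the rest were intermixed (means 59.4 ± 7.33 FPKM in miR-181d-5p livers and 70.3 ± 12.2 FPKM in control livers, SD, n = 5 each, exact permutation p = 0.167, limma adjusted p = 0.381). The pair shared 81.0% of coding bases and no exact stretch of 100, and in the 60 bases from the loop hinge 16 differ, in capitals.
Serpinb6a: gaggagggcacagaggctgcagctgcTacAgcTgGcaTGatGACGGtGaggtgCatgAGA
Serpinb6b: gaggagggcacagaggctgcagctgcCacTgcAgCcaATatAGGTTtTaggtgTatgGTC
Serpinb9, which protects cells from granzyme B, had 7.10, 5.36, 6.02, 4.86 and 5.66 FPKM in miR-181d-5p livers 1 to 5, against 5.81, 7.97, 7.25, 7.89 and 5.44 FPKM in control livers 1 to 5. Controls 2, 3 and 4 exceeded all miR-181d-5p livers and controls 1 and 5 did not (means 5.8 ± 0.841 FPKM in miR-181d-5p livers and 6.87 ± 1.181 FPKM in control livers, SD, n = 5 each, exact permutation p = 0.127, limma adjusted p = 0.416). Serpinb1a, an inhibitor of neutrophil elastase and cathepsin G, had 1.29, 0.817, 1.17, 1.21 and 0.995 FPKM in miR-181d-5p livers 1 to 5, against 1.09, 0.689, 1.25, 1.32 and 1.16 FPKM in control livers 1 to 5. Liver 2 was lowest in each group and the averages were 1.096 ± 0.189 FPKM in miR-181d-5p livers and 1.1 ± 0.246 FPKM in control livers (SD, n = 5 each, exact permutation p = 0.984, limma adjusted p = 0.996). The other tested genes of the clade were Serpinb8, at 2.33 ± 0.142 FPKM in miR-181d-5p livers and 2.6 ± 0.364 FPKM in control livers, and Serpinb9b, at 0.764 ± 0.467 FPKM in miR-181d-5p livers and 0.946 ± 0.303 FPKM in control livers.

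Macrophage and Kupffer cell markers, of cells that express clade B serpins, were lower in 9 of 12 genes (median log2 change -0.26). At an unadjusted p under 0.05, 5 were lower and 1 higher (against 9.63% and 5.04% of all genes), with 0 after adjustment. None of the 12 was at 0 in all livers, and their sums were 1838 to 3099 FPKM in miR-181d-5p livers and 2355 to 3479 FPKM in control livers. The F4/80 gene Adgre1 averaged 33.0 ± 3.19 FPKM in miR-181d-5p livers and 42.9 ± 4.56 FPKM in control livers with no overlap (limma adjusted p = 0.221). Neutrophil markers were lower in 5 of 7 and higher in 2 of 7 tested genes, and lymphocyte markers likewise. Their part in the clade B values was not tested. Of the proteases that clade B serpins meet, lysosomal cathepsins and inflammatory caspases were lower in 10 of 11 genes (median log2 change -0.15). At an unadjusted p under 0.05, 3 were lower, against 9.63% of all genes. Cathepsin S (Ctss) averaged 382 ± 79.99 FPKM in miR-181d-5p livers and 517 ± 95.6 FPKM in control livers (limma adjusted p = 0.276). Of the granule proteases of leukocytes 4 of 13 were high enough to test, with 1 higher and 3 lower (median log2 change -0.31, 0 at an unadjusted p under 0.05 in limma). Granzyme B (Gzmb) averaged 0.908 ± 0.341 FPKM in miR-181d-5p livers and 1.43 ± 0.679 FPKM in control livers (adjusted p = 0.38). The higher one, granzyme A (Gzma), averaged 4.85 ± 2.83 FPKM in miR-181d-5p livers and 2.76 ± 1.24 FPKM in control livers (limma adjusted p = 0.402).

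Serping1, the C1 inhibitor that controls complement, kallikrein and bradykinin release, belongs to clade G. It had 318, 305, 296, 279.9 and 316 FPKM in miR-181d-5p livers 1 to 5, against 274, 386, 385, 364 and 308 FPKM in control livers 1 to 5. Control livers 2, 3 and 4 stood above every miR-181d-5p liver and control liver 1 below all of them. The means were 303 ± 15.7 FPKM in miR-181d-5p livers and 343 ± 50.2 FPKM in control livers (SD, n = 5 each, exact permutation p = 0.135). On the log2 scale this was -0.17 ± 0.10 (SE, limma adjusted p = 0.431).

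The remaining tested serpins of clade A differed by less than their spread. Serpina11 averaged 41.3 ± 5.66 FPKM in miR-181d-5p livers and 42.1 ± 2.82 FPKM in control livers. Serpina12, the adipokine vaspin, averaged 7.26 ± 2.07 FPKM in miR-181d-5p livers and 7.97 ± 1.69 FPKM in control livers. Serpina3m averaged 135 ± 22.1 FPKM in miR-181d-5p livers and 137 ± 29.2 FPKM in control livers. Their limma adjusted p-values were 0.88, 0.74 and 0.975. The other 20 serpin genes had means of at most 0.417 FPKM and were not tested. Of these, 8 had at most 10 reads over all livers and 7 were detected in every liver. The highest single value among them was 0.819 FPKM, of Serpina3c in control liver 2. Serpini1, neuroserpin, known as an inhibitor of tissue plasminogen activator in neurons, was singled out after its values were seen. It had 0.226, 0.351, 0.216, 0.149 and 0.27 FPKM in miR-181d-5p livers 1 to 5, against 0.359, 0.314, 0.392, 0.372 and 0.461 FPKM in control livers 1 to 5, with only liver 2 of the miR-181d-5p group inside the control range (76 reads in all miR-181d-5p livers against 118 in all control livers). Serpina9, with an 8mer and a further GAATGTA in its annotated 3' UTR, had 15 reads in all miR-181d-5p livers and 3 in all control livers.

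Most serpin genes sit in clusters. On chromosome 12, 21 members lay within 799.5 kb (103614786 to 104414329, GRCm38), and on chromosome 13, 12 members of clade B lay within 1160.7 kb. The 8 members on chromosome 1 were spread over 81211.7 kb and do not form a single cluster. Within the chromosome 12 cluster the 15 tested genes ran from Serpina6, with a log2 change of 0.55, to Serpina1e, with -1.05, so genes with means in either direction stood in it.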

How the data were processed

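Polyadenylated RNA of 10 livers was sequenced, 5 with AAV-miR-181d-5p and 5 with a control AAV. Per the labels' protocols, the mirVana kit served for RNA extraction and the TruSeq Stranded mRNA kit for the libraries. A single table of FPKM was deposited by the authors, a value scaled by gene length and library size, with 17274 genes by symbol. The mm10 build, HISAT2 2.2.1 and HTSeq 0.13.5 are named in the submitters' processing notes, as are Trimmomatic 0.38, DESeq2 1.18.1 with R 3.4.1, and FastQC 0.11.9, without role or order. The labels do not say whether counting used strand, so overlapping antisense genes may share reads. Columns were matched to samples by the group and number in their names.

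The members, classes and the 20 gene lists were chosen with earlier results of these data known, so their counts are descriptions. The 12053 genes whose mean over the 10 livers reached 0.5 FPKM were tested as log2(FPKM + 1) in R 4.3.3 by limma 3.58.1 (eBayes with trend after lmFit, group as the only term, two-sided, Benjamini-Hochberg at 0.05 over all genes). Log2 changes are miR-181d-5p minus control on this scale, which understates changes of low genes. Exact permutation tests used the mean FPKM over all 252 labellings, are two-sided and unadjusted, and stand beside the adjusted limma p. Genes given liver by liver were the 3 with the smallest limma p of each class and serpins picked by function. List genes were among the 3 with the smallest p of their list. Col1a1, Plau, Plg, Saa1 and Hp were instead named beside a serpin. The fit across all genes included 1 further serpin gene that is not reported here. FPKM values were whole reads divided by length and total for 17273 genes (99.994%, within 0.02 of a read), with library totals of 18985912 to 20657019 reads. A serpin read total comes from these. Counts of livers of the same group differed by a chi-square of at least 8.79 per degree of freedom, well beyond counting noise.

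Replicate numbers occur in both groups. Deviations of same-numbered livers from their group means correlated at -0.283 to 0.015, so the numbers were not taken as pairs. Coding sequences, 3' UTRs and positions come from GENCODE vM21 (GRCm38), and miRNA and promoter sequences (250 bases before to 50 after a start) come from RefSeq, GRCm38.p6. Motifs were sought on both strands, also, by name, the full HNF1 palindrome, the ER stress element, the heat shock element and a loose NF-kappaB site, which stood in 0.00913%, 0.119%, 0.603% and 50.8% of promoters. The first 3 were in 0 serpin promoters searched, and the last was in 10 of 16 genes of clades A, C, D and F, 2 of 2 of clades E and H and 3 of 5 of clade B. Serpin counts are of genes with the letters in any of their promoters, while the percentages are of single promoters. The alternatives were other pseudocounts, filters, scalings, array weights, robust fitting, a replicate block and leaving out each liver, and, chosen after seeing the data, limma voom on recovered reads and a median without Serpina3f and Serpina3g. Code was tested on simulated data. Python 3.11.15, numpy 2.4.6, pandas 2.3.3, scipy 1.17.1, Biopython 1.88 and matplotlib 3.10.9 were used.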

Additional observations from a re-analysis of the deposited data

Results flagged for a closer look

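In 5 of 78 groups of 5 livers looked at (the tested serpins, untested ones with at least 10 reads in a liver, and the 2 paralogue sums), the highest or the lowest liver stood apart by Dixon's criterion, whose 95% critical value for 5 samples is 0.71. Chance alone gives about 1 in 20 such groups. Serpina1c stood at 462 FPKM in control liver 5, with the next control liver at 367 FPKM, and Serpinb2 at 0.688 FPKM in control liver 5, which rests on 27 reads in that liver. Serpinf1 at 257 FPKM and Serpinf2 at 201 FPKM were both lowest in miR-181d-5p liver 5, whose nearest neighbours stood at 276 and 235 FPKM. Serpinb1b was at 0.313 FPKM in control liver 4, with the next at 0.143 FPKM. Leaving out miR-181d-5p liver 5 could only raise the Serpinf1 difference, since that liver was the lowest of the higher group (log2 change 0.24 without it). With each of the 10 livers left out in turn, the log2 change ran from 0.18 to 0.24.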

How the results depend on the processing

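No serpin passed an adjusted p of 0.05 in any of the 20 alternatives. Over all genes the count was 1 with the replicate block and 0 to 3 with 1 liver left out (3 without control liver 1, and 1 each without control liver 5 or miR-181d-5p liver 3). Genes at an unadjusted p under 0.05 numbered 1071 to 2587 with 1 liver left out (1071 without miR-181d-5p liver 4), and serpins 6 to 12 (6 each without miR-181d-5p liver 2 or 4 or control liver 2 or 3). The replicate block, whose numbers do not pair the livers by their deviations, gave 1220 genes and 7 serpins. With no filter on low genes the median log2 change was 0.0012 for clades A, C, D and F and -0.0095 for clade B, while that of clades E and H ran from -0.59 to -0.38 over its alternatives. Of the log2 changes of single serpins, 561 kept their direction and side of the threshold and 17 changed sign. The latter were in genes with a main log2 change from -0.14 (Serpina12) to 0.0012 (Serpinb1a). Serpina11 was at 0.0028 with array weights and -0.0825 to 0.0428 without 1 liver, Serpina12 at -0.2391 to 0.0098 without 1 liver, Serpina3i at 0.0313 with quantile normalization and -0.0627 to 0.0118 without 1 liver, and Serpina3m at 0.076 with array weights and -0.0871 to 0.0737 without 1 liver. Serpinb1a was at -0.0114 after scaling to a common sum, -0.0362 with array weights and -0.0752 to 0.0514 without 1 liver, and the log2 ratio of its means was -0.1336 to 0.084 without 1 liver. The cause was not tested. Of the exact permutation results, 14 lost and 10 gained a p under 0.05. Low serpins are limited by depth, since 8 had at most 10 reads in all.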

Other observations

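Markers of cell types not set beside a serpin class above gave the following values, and the part of these cells in the serpin values was not tested. Mesothelial markers were lower in 4 of 4 tested genes (median log2 change -0.25), with sums of 9.26 to 15.2 FPKM in miR-181d-5p livers and 11.5 to 18.1 FPKM in control livers. Of the pancreas and gut markers 3 were high enough to test, with 2 higher and 1 lower. The single mast cell marker tested, Kit, averaged 2.68 ± 0.31 FPKM in miR-181d-5p livers and 3.04 ± 0.411 FPKM in control livers (SD, n = 5 each, limma adjusted p = 0.498).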
